A study of Homo sapiens with 12 samples.

Results

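The 77 genes described here encode the proteins of the cytoplasmic ribosome of HEK293, a line derived from human embryonic kidney. They are the protein-coding genes of GENCODE whose symbols are RPL or RPS and a number, together with RPLP0, RPLP1, RPLP2 and RPSA. The RPS6 kinases, RPS19BP1 and copies with an added L, such as RPL22L1, were left out. The deposited table lists 26058 genes. Of 82 loci in the annotation that meet the rule, 77 were analysed, 46 of the large subunit and 31 of the small subunit. The read-through loci RPL17-C18orf32, RPL36A-HNRNPH2 and RPS10-NUDT3, and RPS4Y1 and RPS4Y2, were not analysed here. All 77 passed the filter on low values, a mean of at least 0.5 RPKM (reads per kilobase of gene, scaled to library size).

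Wild-type (WT) HEK293 cells were compared with a derivative (AMPK KO) in which CRISPR had removed both genes for the catalytic subunit of the energy-sensing kinase AMPK. Total RNA was sequenced after depletion of ribosomal RNA, in 12 libraries that form 6 groups of 2. All cells were starved of serum for 24 h, and all groups received 0.025% DMSO, in the cordycepin groups together with cordycepin. Within each line 1 group received DMSO (0.025%) alone, 1 received DMSO and then epidermal growth factor (EGF) for 30 min, and 1 received 25 µM cordycepin and then EGF for 30 min, 50 min of treatment in all. Cordycepin, or 3′-deoxyadenosine, is an analogue of adenosine. According to the paper, its triphosphate ends chains during polyadenylation, whereas synthesis of pre-mRNA as a whole is not terminated in intact cells. The sources differ on the unit of the EGF concentration and on how long the group without EGF was in DMSO, and whether the AMPK KO line is a single clone was not given in the sources used here. Libraries carry the replicate numbers 2 and 3, and the labels do not say that they came from separate cultures, so p-values measure only the spread between these samples. The comparisons ask whether EGF and cordycepin alter transcript levels and whether the answer depends on AMPK.

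Each ribosome contains a large subunit, which forms peptide bonds, and a small subunit, which reads the mRNA. Ribosomal protein mRNAs are abundant and long-lived in growing cells, and most begin with a cytidine and a run of pyrimidines, the terminal oligopyrimidine (TOP) motif, through which the mTOR pathway controls their translation. That control acts mainly on how well the mRNA is translated, which total RNA levels do not measure. The genes also have many processed pseudogenes, copies of their spliced mRNA elsewhere in the genome.

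The start sites were read from RefSeq (GRCh38.p14), which matched 62 of the 77 genes by symbol. At the annotated start, 42 of 62 genes (67.7%) had C followed by at least 4 pyrimidines, against 4.07% of 35116 promoters in the same table. Within 5 bases of the start the motif was found in 50 genes (80.6%), against 21.1% of promoters. The windows of 12 genes that recur in the results are shown 5′ to 3′, from 30 bases before the start to 10 bases from it on. Capitals mark the pyrimidine run that meets the TOP definition, and the last 4 windows have none.
RPSA (chr3:39406690-39406729, plus strand): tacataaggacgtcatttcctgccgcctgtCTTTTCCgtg
RPS19 (chr19:41860225-41860264, plus strand): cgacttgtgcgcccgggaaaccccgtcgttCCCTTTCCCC
RPS14 (chr5:150449730-150449769, minus strand): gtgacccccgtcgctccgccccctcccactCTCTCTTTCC
RPL37A (chr2:216498814-216498853, plus strand): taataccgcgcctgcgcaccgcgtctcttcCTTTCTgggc
RPL36A (chrX:101390981-101391020, plus strand): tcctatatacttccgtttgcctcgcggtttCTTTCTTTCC
RPL39 (chrX:119791621-119791660, minus strand): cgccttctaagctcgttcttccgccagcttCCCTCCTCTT
RPS6 (chr9:19380227-19380266, minus strand): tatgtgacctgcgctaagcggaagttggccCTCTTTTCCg
RPLP2 (chr11:809937-809976, plus strand): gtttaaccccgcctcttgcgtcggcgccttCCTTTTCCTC
RPL10 (chrX:154398035-154398074, plus strand): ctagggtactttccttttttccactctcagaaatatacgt
RPS26 (chr12:56041888-56041927, plus strand): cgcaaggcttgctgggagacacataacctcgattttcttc
RPS4X (chrX:72277239-72277278, minus strand): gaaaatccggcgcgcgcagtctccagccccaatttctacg
RPS27A (chr2:55231873-55231912, plus strand): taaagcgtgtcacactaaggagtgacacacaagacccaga

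The 8 windows with capitals each carry their run at the annotated start itself. The 12 genes without a motif near the RefSeq start were RPL6, RPL9, RPL10, RPL13, RPL15, RPL17, RPL27, RPS4X, RPS15, RPS26, RPS27A and RPS29. RefSeq and GENCODE place some of these starts at different bases. The RefSeq starts of RPL10 and RPS26 lie well inside the spans that GENCODE gives these genes. The lack of a motif therefore holds for the RefSeq start only, and other starts were not read. Of 5 letter strings searched on both strands of the 250 bases before the start, none of which contains another, CCGGAA (the core of sites for ETS factors) was in 28 of 62 genes (45.2%) and 14.5% of promoters. TCTCGCG was in 14 (22.6%) and 2.95% of promoters. GGGCGG, a GC box, was in 34 (54.8%) and 42.6%. TATAAA was in 5 (8.06%) and 10.7%, and AAGATGG was in 1 (1.61%) and 3.70%. These are descriptions of letters and not of bound factors.

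Positions of genes are given in GRCh38 as GENCODE lists them. Ribosomal protein mRNA levels covered a wide range. Mean RPKM over the 12 libraries was highest for RPS4X, the X-linked copy of a small-subunit protein, at 489. It was followed by RPS6, the substrate of S6 kinases, at 394, RPL41, which encodes a very short peptide, at 338 and RPS16 at 312. The lowest means were those of RPS29 (3.42), RPL36A (5.94), RPS28 (6.22), RPL21 (7.76) and RPS10 (7.94). Among the other genes fixed for description, the stalk proteins that recruit elongation factors had 92.9 (RPLP0), 74.6 (RPLP1) and 160 RPKM (RPLP2). RPL5 and RPL11, which bind MDM2 together with 5S rRNA, had 127 and 56.8 RPKM. RPL3, at the peptidyl transferase centre, had 112, RPL10A 170, RPL13A 50.7, RPL22 25.1 and RPL26 56.6 RPKM, and RPS3, at the mRNA entry site, had 153. RPS27A, made as a fusion with ubiquitin, had 9.68 RPKM. Within single genes the highest library exceeded the lowest by a median of 1.87-fold, from 1.32-fold for RPL28 to 2.99-fold for RPL39.

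**Figure D1:**
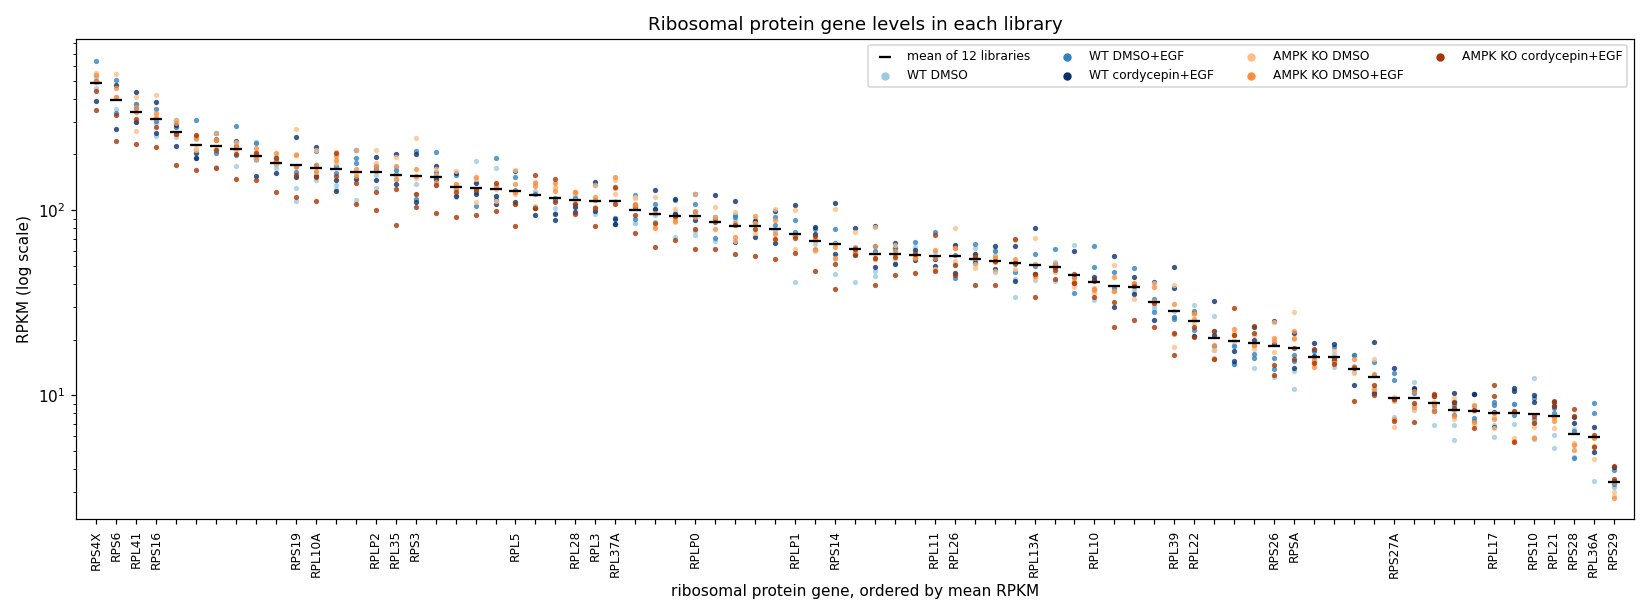
RPKM (log axis) of the 77 ribosomal protein genes in each of 12 libraries, ordered by mean, with some genes labelled; dashes are means over the libraries and colours are the 6 groups. Means run from 489 RPKM for RPS4X to 3.42 RPKM for RPS29, and for most genes the spread of the libraries is small beside the distance between genes.

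The scale of length matters for the order of these levels. The deposited RPKM divides by the joined length of all annotated exons, a median of 3228 bases for the 77 genes, whereas their main (canonical) transcripts have a median of 785 bases. RPS29, lowest of all, was divided by 9840 bases although its main transcript has 295. On the length of the main transcript it moved from rank 77 to rank 52, and RPS16 moved from rank 4 to rank 1. The orders on both scales had a Spearman correlation of 0.871 across the 77 genes.

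A large part of the reads with ribosomal protein sequence lay on pseudogenes. The table lists 511 pseudogenes named after 68 of the genes, and in each library they held 32.8% to 36.1% of all reads on genes and their pseudogenes. The 5 genes with the largest shares were RPL17 (96.7% over 21 pseudogenes), RPS28 (96.2%), RPS27 (94.7%), RPS3A (93.6%) and RPL7 (93.5%). RPS6 had 0.883%, RPS14 0.359% and RPL37A 0.127%. How reads that match several loci were counted is not given in the sources used here, so levels of genes with a large share are uncertain. Across the 77 genes the level and the share had a Spearman correlation of -0.518. The 22 genes with under 1% on pseudogenes had a median of 122 RPKM, the 33 with 1% to 50% had 61.6 and the 22 with over 50% had 18.2.

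**Figure D2:**
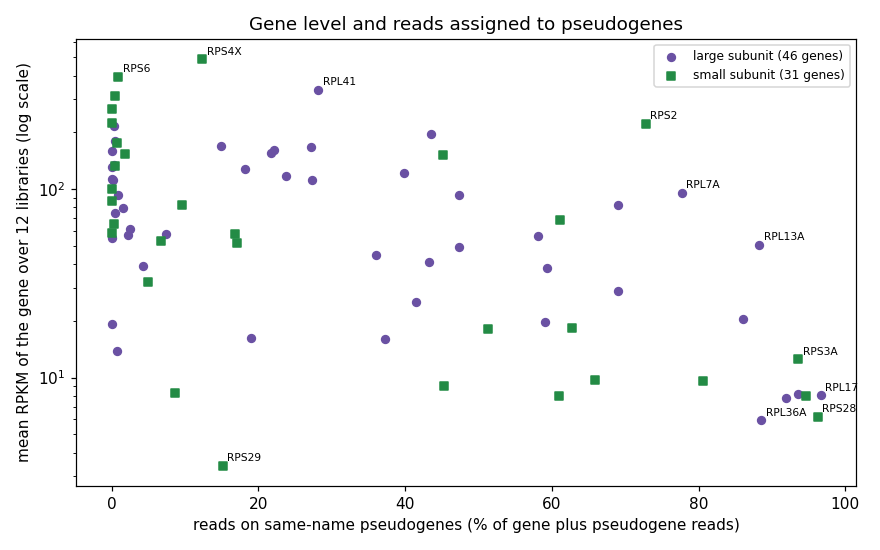
Mean RPKM of each gene over 12 libraries (log axis) against the percentage of its gene plus pseudogene reads that lay on pseudogenes; circles are large-subunit and squares small-subunit genes. Genes above 90% are all near the bottom, at 12.5 RPKM (RPS3A) or less.

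Among the libraries, reads on listed genes ran from 3994167 in WT DMSO replicate 3 to 26347261, with 12627925 or more in the other libraries, and the lowest count of any ribosomal protein gene was 37 reads (RPS27 in WT DMSO replicate 3). PRKAA1, a targeted gene, was at 11.2 to 21.9 RPKM in WT and 7.03 to 8.51 in AMPK KO libraries, while PRKAA2, the other, overlapped (6.78 to 12.1 and 5.39 to 7.43). GAPDH was at 321 to 520 RPKM. Of the HEK293 markers, KRT8, KRT18, VIM, CDH2 and NEFL had medians of 11.3 to 68.4 RPKM over the libraries, LHX1 and PAX2 were below 1 and NEFM was at or near 0. The leukocyte marker PTPRC did not exceed 0.061 RPKM.

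Ribosomal protein genes moved together between replicates of 1 group. They took 1.99% of reads in AMPK KO cordycepin+EGF replicate 2 and 2.75% in WT cordycepin+EGF replicate 3. On the log2 scale, after scaling each library by its upper quartile, the median gene of AMPK KO cordycepin+EGF replicate 2 lay 0.36 below its own mean over the 12 libraries, and 11 of 77 genes lay above their mean. In WT cordycepin+EGF replicate 3 the median gene lay 0.25 above and 64 genes were above their mean. Replicate 3 exceeded replicate 2 for 70 of 77 genes in AMPK KO cordycepin+EGF cells (median difference 0.36), 65 in AMPK KO DMSO cells (0.21), 63 in WT cordycepin+EGF cells (0.28) and 54 in WT DMSO cells (0.18). Replicates of WT DMSO+EGF were balanced, with 38 genes higher in replicate 3. In AMPK KO DMSO+EGF cells 14 genes were higher in replicate 3. Across all genes tested, 46.6% to 50.4% were higher in replicate 3 in each group. The upper-quartile scaling removes a shift common to all genes, so these shares cannot show one. The shifts of the ribosomal protein genes are relative to the bulk of the table. Mitochondrially encoded transcripts took their lowest shares, 1.98% and 2.13%, in WT cordycepin+EGF replicate 3 and AMPK KO DMSO replicate 3, where ribosomal protein genes took their highest (2.75% and 2.71%). In AMPK KO cordycepin+EGF replicate 2 they took 3.76%, and WT cordycepin+EGF replicate 2, WT DMSO+EGF replicate 2 and WT DMSO replicate 3 had more (3.77%, 3.96% and 4.54%). In WT DMSO+EGF replicate 2, 54 of 77 ribosomal protein genes lay above their mean. Their part in the result was not tested. The median SD between replicates, on log2, was 0.217 for the 77 genes and 0.221 for all genes.

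**Figure D3:**
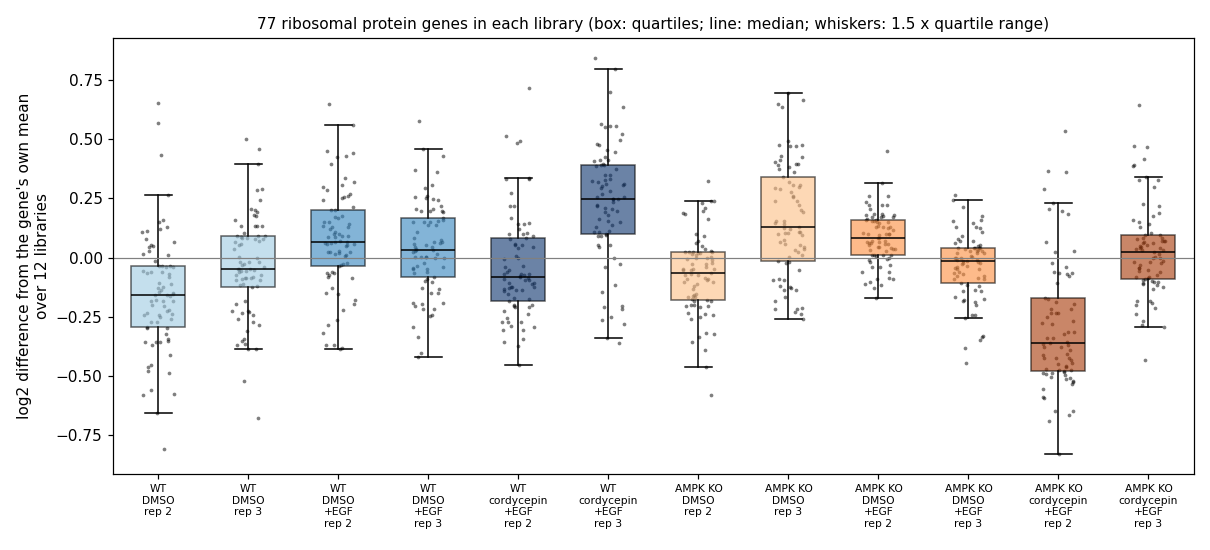
Log2 difference of each of 77 ribosomal protein genes (points) from its own mean over 12 libraries, by library; boxes are quartiles, lines medians and whiskers reach 1.5 times the quartile range. The box of AMPK KO cordycepin+EGF replicate 2 lies lowest, with a median of -0.36, and that of WT cordycepin+EGF replicate 3 highest, at 0.25.

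No ribosomal protein gene passed an adjusted p of 0.05 in any of 9 comparisons (limma on log2(upper-quartile scaled RPKM + 0.5), Benjamini-Hochberg over 22067 genes). Fold changes are on that log2 scale, on which changes of low genes are understated. Voom on reads recovered from the RPKM values, a second test, called 3, 2 and 1 genes in the AMPK KO against WT comparisons in DMSO, DMSO+EGF and cordycepin+EGF, 1 for the difference between the lines in cordycepin effect and 0 in the other 5 comparisons. The directions and sizes that follow are therefore values, given with their standard errors (SE), and the counts at an unadjusted p under 0.05 are read against the same count over all genes. In bulk RNA, fewer cells of a type and less RNA per cell cannot be told apart.

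**Figure D4:**
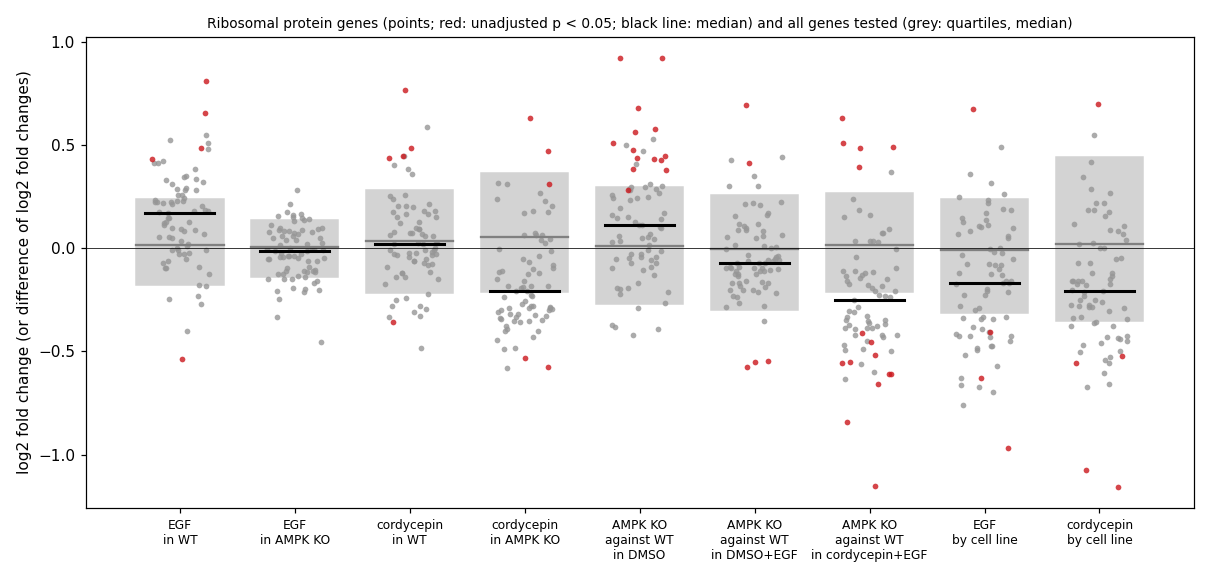
Log2 fold changes (for the last 2 columns, AMPK KO minus WT differences of log2 fold changes) of the 77 genes in 9 comparisons: red points have an unadjusted p under 0.05, black lines are medians, and grey boxes with lines are quartiles and medians of all genes tested. The medians of the ribosomal protein genes lie furthest below 0 in the AMPK KO against WT comparison in cordycepin+EGF (-0.25) and in the response of AMPK KO cells to cordycepin (-0.21).

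In WT cells, most ribosomal protein genes had slightly higher values with EGF, and none passed adjustment. The median log2 fold change was 0.17, against 0.016 for all genes, and 57 of 77 genes lay above 0. Adjusted p fell under 0.05 for 0 members and for 0.0227% of all genes, with EGR1, an immediate early gene induced by EGF, at a log2 fold change of 6.16 (SE 0.19). At an unadjusted p under 0.05, 4 members were higher (6.18% of all genes) and 1 was lower (3.53%). The mitochondrial ribosomal protein genes, which serve a separate ribosome, had a median of 0.12, and other TOP mRNAs (elongation and initiation factors and the like, 14 of 15 in the table) had 0.00066. Leaving out 1 WT DMSO library gave 49 or 64 genes above 0.

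RPL36A (ENSG00000241343, chromosome X, 101390824 to 101396155), of the large subunit, gave 5.98 and 3.45 RPKM in WT DMSO, 8.02 and 9.11 in WT DMSO+EGF and 4.95 and 6.75 in WT cordycepin+EGF libraries. The AMPK KO libraries lay between 4.51 and 6.13. The highest values were thus those of the WT DMSO+EGF libraries, which overlapped no other group. Its EGF change in WT cells was 0.81 (SE 0.24, limma adjusted p 0.44), the largest among the members, but 88.6% of its reads lay on pseudogenes, and with those added the change was 0.085.

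RPL10 (ENSG00000147403, chromosome X, 154389955 to 154409168), which joins the large subunit late in assembly, gave 32.6 and 37.5 RPKM in WT DMSO, 64.2 and 49.4 in WT DMSO+EGF, and 41.7 and 43.5 in WT cordycepin+EGF libraries. AMPK KO libraries ranged from 34 to 41.5. Its EGF change in WT cells was 0.65 (SE 0.15, limma adjusted p 0.43, the smallest of the members) and remained 0.65 with pseudogene reads added. RPLP1 followed at 0.55 (SE 0.30). At the other end were RPS25, a small-subunit protein needed by some viral internal ribosome entry sites, at -0.54 (SE 0.21), RPL23A at -0.40 (SE 0.25) and RPS26 at -0.27 (SE 0.29). RPS25 had 144 and 185 RPKM in WT DMSO and 105 and 125 in WT DMSO+EGF libraries, which did not overlap.

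In AMPK KO cells the median response to EGF was close to 0, and its direction turned on single libraries. It was -0.012, against 0.006 for all genes, 44 of 77 genes lay below 0, and the quartiles were -0.11 and 0.078. Without AMPK KO DMSO replicate 3 the median was 0.11 (62 above 0), without replicate 2 it was -0.12 (55 below 0), and without AMPK KO DMSO+EGF replicate 3 it was 0.037 (43 above 0). Of the members 0 passed adjustment (0.0136% of all genes), and at an unadjusted p under 0.05, 0 members were higher (1.03%) and 0 lower (1.4%). The lowest were RPS14 (-0.45, SE 0.30), RPS19 (-0.33, SE 0.25) and RPS3 (-0.25, SE 0.35), and among the highest were RPL11 (0.28, SE 0.21) and RPL32 (0.18, SE 0.21). EGR1 changed by 5.28 (SE 0.19) in the same comparison.

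The difference between the lines in the EGF response had a median of -0.17, with 54 of 77 genes below 0. Without AMPK KO DMSO replicate 3 it was -0.075 (48 below 0) and without AMPK KO DMSO+EGF replicate 3 -0.11 (48 below 0). It passed adjustment for 0 members and for 0% of all genes; at an unadjusted p under 0.05, 1 member was higher (3.3%) and 3 were lower (5.38%). RPS14 had the largest difference (-0.97, SE 0.42, limma adjusted p 0.57), followed downward by RPS19 (-0.76, SE 0.35) and RPL36A (-0.70, SE 0.34). Upward, RPS25 had 0.67 (SE 0.29), RPL23A 0.49 (SE 0.35) and RPL32 0.36 (SE 0.30). The libraries of 8 members separated in opposite directions in the lines, against 10.5% of all genes.

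Cordycepin, given before EGF, left the median of ribosomal protein genes near 0 in WT cells. It was 0.02, against 0.033 for all genes, with 41 genes above 0 and 36 below. Without WT cordycepin+EGF replicate 3 the median was -0.16 (59 below 0), and without replicate 2 it was 0.19 (17 below 0), so the direction was decided by single libraries. After adjustment 0 members passed (0.00453% of all genes), and at an unadjusted p under 0.05, 4 members were higher (8.86%) and 1 was lower (7.13%). RPL36A (-0.48, SE 0.24), RPL10 (-0.36, SE 0.15) and RPL27 (-0.33, SE 0.28) were lowest, the first pair being those that stood highest after EGF, in a comparison that shares the WT DMSO+EGF libraries. RPL39 (0.77, SE 0.32), RPS26 (0.59, SE 0.29) and RPL7 (0.49, SE 0.14, limma adjusted p 0.27) were highest. With pseudogene reads added, RPS26 was at -0.092 and RPL7 at -0.12.

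In AMPK KO cells most ribosomal protein genes had lower values with cordycepin, and none passed adjustment. The median was -0.21, against 0.056 for all genes, and 58 of 77 genes lay below 0 (75.3%, against 44.9% of all genes). Among the 12822 protein-coding genes tested, a closer comparison, the median was -0.031 and 53.4% lay below 0. Adjusted p was under 0.05 for 0 members (0.471% of all genes), and at an unadjusted p under 0.05, 3 members were higher (11.7%) and 2 were lower (10.1%). These counts depended on which AMPK KO cordycepin+EGF library was included. The medians were -0.19 for the large and -0.23 for the small subunit. AMPK KO cordycepin+EGF replicate 2 carried much of the shift: without it the median was -0.03 and 41 genes were below 0, and without replicate 3 it was -0.39 and 64 were below 0.

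RPS6 (ENSG00000137154, chromosome 9, 19375715 to 19380236) gave 455 and 408 RPKM in AMPK KO DMSO+EGF and 237 and 327 in AMPK KO cordycepin+EGF libraries, a change of -0.58 (SE 0.31, limma adjusted p 0.31). Its WT libraries gave 333 and 506 with EGF and 273 and 476 with cordycepin and EGF, which overlapped. RPL35 (ENSG00000136942, chromosome 9, 124857880 to 124861981), near the exit of the peptide tunnel, gave 174 and 148 against 82.8 and 131 RPKM in AMPK KO cells (-0.58, SE 0.24, limma adjusted p 0.21). RPLP2 (ENSG00000177600, chromosome 11, 809965 to 812880), of the stalk, gave 173 and 164 against 101 and 126 (-0.53, SE 0.17, limma adjusted p 0.14). In all 3 genes the AMPK KO cordycepin+EGF libraries lay below those without cordycepin, and replicate 2 was the lower of the pair. FAU, whose ribosomal protein is made as a fusion and falls outside the symbol rule, had -0.39 (SE 0.24). All 14 other TOP mRNAs lay below 0, against 44.9% of all genes and 53.4% of protein-coding genes, with a median of -0.31. At an unadjusted p under 0.05, 3 were lower (EEF1B2 at -0.42, EIF3E at -0.39 and EIF4B at -0.47), against 10.1% of all genes. How far these values rest on AMPK KO cordycepin+EGF replicate 2 was not tested. Mitochondrial ribosomal protein genes had a median of -0.096 with 46 of 77 below 0.

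The change with cordycepin in AMPK KO cells varied with expression level. Among the 39 genes of higher level, 39 lay below 0, with a median of -0.29. Among the 38 of lower level, 19 lay below 0 and the median was -0.007. Genes of lower level had larger pseudogene shares (Spearman -0.518 between level and share across the 77 genes). With pseudogene reads added, 67 of 77 genes lay below 0, and genes of higher and lower level were not compared again on that scale. Across the 77 genes the change and the level, measured in the WT libraries, had a Pearson correlation of -0.68 and a Spearman correlation of -0.61; across 12822 protein-coding genes Pearson's r was -0.44. The points share libraries, so these are descriptions. In WT cells the corresponding Pearson correlation, with the level measured in AMPK KO libraries, was -0.31. Genes with a TOP motif near the RefSeq start had a median of -0.20 (40 of 50 below 0), and the 12 without one had -0.08 (7 below 0). The 15 genes without a RefSeq entry, whose starts were not read, had -0.29 (11 below 0). Whether the change follows the motif was not tested.

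The highest changes were those of RPS28 and RPL17, which had most of their reads on pseudogenes. RPS28 (ENSG00000233927, chromosome 19, 8321158 to 8323340), of the small subunit, gave 5.43 and 5.06 RPKM with EGF and 7.77 and 8.45 with cordycepin and EGF in AMPK KO cells (0.63, SE 0.19, limma adjusted p 0.12). RPL17 (ENSG00000265681, chromosome 18, 49488453 to 49492508), at the tunnel exit, gave 8.05 and 7.48 against 11.4 and 9.89 (0.47, SE 0.14, limma adjusted p 0.12). RPL27A, with 0 reads on pseudogenes, followed at 0.32 (SE 0.14). For RPS28 the gene itself held 11.2 and 10.5 RPM (reads scaled to library size) with EGF and 19.1 and 19 with cordycepin, whereas its 2 pseudogenes held 356 and 378, then 294 and 321. The pseudogenes of RPL17 held 693 and 634 RPM, then 511 and 634. For RPS28, gene and pseudogenes thus differed in opposite directions, with the libraries apart. For RPL17 the pseudogene values of the treatments met at 634 RPM, and only AMPK KO cordycepin+EGF replicate 2 (511 RPM) lay clearly lower. With the reads added the changes were -0.34 for RPS28 and -0.32 for RPL17. Of the 22 genes with over 50% on pseudogenes, 13 lay below 0 as deposited and 21 with pseudogene reads added, and over all 77 genes the count below 0 went from 58 to 67.

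The difference between the lines in the cordycepin response had a median of -0.21, with 55 of 77 genes below 0. It passed adjustment for 0 members and 0% of all genes; at an unadjusted p under 0.05, 1 member was higher (10.9%) and 4 were lower (10.5%). RPL39 had -1.16 (SE 0.45, limma adjusted p 0.19), RPS26 -1.07 (SE 0.40, limma adjusted p 0.18) and RPL35 -0.67 (SE 0.34), while RPL17 had 0.70 (SE 0.20, limma adjusted p 0.13), RPL36A 0.55 (SE 0.34) and RPL10 0.42 (SE 0.21). In opposite directions, libraries separated for 3 members (19.2% of all genes).

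RPS26 (ENSG00000197728, chromosome 12, 56041351 to 56044697), at the mRNA exit channel, gave 13.9 and 15.9 RPKM in WT DMSO+EGF, 19 and 25.1 in WT cordycepin+EGF, 20.4 and 19.7 in AMPK KO DMSO+EGF and 14.6 and 12.8 in AMPK KO cordycepin+EGF libraries. The order of the libraries was thus reversed between the lines. WT DMSO libraries gave 12.6 and 24.8, and AMPK KO DMSO libraries 17.1 and 24.8, so replicates without EGF differed about as much as the treatments. Of its reads, 62.8% lay on 14 pseudogenes, and with these added the difference between the lines was 0.087. Its smallest adjusted p over 26 settings was 0.041 (a fit of only the groups compared) and its largest 0.90.

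Without EGF or cordycepin, most ribosomal protein genes had higher values in AMPK KO than in WT cells. The median difference was 0.11, against 0.009 for all genes, with 50 of 77 genes above 0. Adjusted p was under 0.05 for 0 members (0.44% of all genes). At an unadjusted p under 0.05, 14 members were higher (12%) and 0 were lower (9.29%). The 14 became 4 without AMPK KO DMSO replicate 3 (6.09% of all genes), 6 without WT DMSO replicate 2 (10.5%), 8 in a fit of only the groups compared and 3 with array weights. Among them were RPSA, RPS19, RPS14, RPS12, RPS9, RPL29, RPLP0, RPL37, RPL37A, RPLP2, RPL15 and RPL21. Without AMPK KO DMSO replicate 3 the median was -0.0029 and 37 of 77 genes were above 0, and without replicate 2, 58 were. The WT DMSO libraries also enter the EGF response of WT cells and the difference between the lines in that response. In these libraries 18 (replicate 2) and 31 (replicate 3) of 77 genes lay above their mean over the 12 libraries. These comparisons are therefore not separate results.

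RPSA (ENSG00000168028, chromosome 3, 39406716 to 39426255), also known as the laminin receptor precursor, gave 10.9 and 13.6 RPKM in WT DMSO and 20.1 and 28.2 in AMPK KO DMSO libraries. After EGF the values were 15.4 and 16.4 in WT and 22.1 and 20.5 in AMPK KO libraries, and after cordycepin and EGF 14.1 and 21.8 in WT and 15.7 and 17.9 in AMPK KO libraries. The lines did not overlap with DMSO or with DMSO+EGF and overlapped with cordycepin. In DMSO the difference was 0.92 (SE 0.21, limma adjusted p 0.077, from 0.017 to 0.42 over the alternatives, the lowest with voom). With EGF it was 0.43 (SE 0.21). Pseudogenes held 51.3% of its reads, and with them added the difference in DMSO was 0.77.

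RPS19 (ENSG00000105372, chromosome 19, 41860255 to 41872925), mutated in Diamond-Blackfan anaemia, gave 112 and 132 RPKM in WT DMSO, 161 and 173 in WT DMSO+EGF, 151 and 248 in WT cordycepin+EGF, 200 and 275 in AMPK KO DMSO, 199 and 172 in AMPK KO DMSO+EGF and 118 and 154 in AMPK KO cordycepin+EGF libraries. The lines were apart with DMSO only, by 0.92 (SE 0.25, limma adjusted p 0.11, from 0.021 to 0.46 over the alternatives). RPS14 (ENSG00000164587, chromosome 5, 150442635 to 150449739), lost in the 5q- form of myelodysplasia, gave 45.4 and 54.7 RPKM in WT DMSO, 66.4 and 79.6 in WT DMSO+EGF, 58.3 and 109 in WT cordycepin+EGF, 65.6 and 101 in AMPK KO DMSO, 63.1 and 54.8 in AMPK KO DMSO+EGF and 37.4 and 50.9 in AMPK KO cordycepin+EGF libraries. It was higher in the AMPK KO libraries with DMSO (0.68, SE 0.30) and lower in them with cordycepin and EGF (-0.84, SE 0.30, limma adjusted p 0.29). Over all libraries, pseudogenes held 0.697% of the reads of RPS19 and 0.359% of those of RPS14. Among the lowest differences in DMSO were those of RPS10 (-0.42, SE 0.29) and RPL23A (-0.38, SE 0.25).

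With DMSO and EGF the lines had a median difference near 0. It was -0.07, against -0.005 for all genes, and 48 of 77 genes lay below 0. Without AMPK KO DMSO+EGF replicate 3 the median was -0.0051 with 39 below 0. Adjusted p was under 0.05 for 0 members, although 1.74% of all genes passed. At an unadjusted p under 0.05, 2 members were higher (11.1%) and 3 lower (11.4%). RPL37A (ENSG00000197756, chromosome 2, 216498825 to 216579180), a zinc-binding protein of the large subunit, gave 84.5 and 91.2 RPKM in WT DMSO+EGF and 150 and 132 in AMPK KO DMSO+EGF libraries. Over all treatments its WT libraries ranged from 83.9 to 112 and its AMPK KO libraries from 107 to 150, which overlapped only through WT DMSO replicate 3 and AMPK KO cordycepin+EGF replicate 2. The difference was 0.70 (SE 0.17, limma adjusted p 0.067, from 0.0058 to 0.31 over the alternatives), 0.43 in DMSO and 0.49 in cordycepin+EGF. RPS26 (0.44, SE 0.29) and RPSA were next. RPL10 (-0.58, SE 0.15, limma adjusted p 0.077, from 0.011 to 0.36 over the alternatives), RPL36A (-0.55, SE 0.24) and RPS27A (-0.55, SE 0.23) were lowest, and RPS26 was at -0.16 with pseudogene reads added.

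After cordycepin and EGF, most ribosomal protein genes were lower in AMPK KO than in WT libraries. The median was -0.25, against 0.014 for all genes, and 60 of 77 genes lay below 0, 26 of 31 in the small subunit and 34 of 46 in the large. Without WT cordycepin+EGF replicate 3 the median was -0.084 (49 below 0), and without AMPK KO cordycepin+EGF replicate 3 it was -0.45 (65 below 0). Adjusted p was under 0.05 for 0 members (0.118% of all genes). At an unadjusted p under 0.05, 5 members were higher (7.1%) and 10 lower (6.64%). The count lower dropped to 1 without AMPK KO cordycepin+EGF replicate 2 (4.90% of all genes), 2 without WT cordycepin+EGF replicate 3 (3.00%) and 5 with pseudogene reads added. Leaving out AMPK KO cordycepin+EGF replicate 3 gave 25 (5.76%), and leaving out WT cordycepin+EGF replicate 2 gave 24 (7.81%). The 10 were RPL39, RPS14, RPL35, RPL7A, RPS27, RPLP2, RPLP0, RPS21, RPS15 and RPL7.

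RPL39 (ENSG00000198918, chromosome X, 119786504 to 119791630), a short protein lining the peptide tunnel, gave 38.2 and 49.4 RPKM in WT cordycepin+EGF and 16.5 and 21.8 in AMPK KO cordycepin+EGF libraries, the largest difference of any member in this comparison (-1.15, SE 0.32, limma adjusted p 0.24, from 0.044 to 0.80 over the alternatives). The WT values were the highest of all groups apart from AMPK KO DMSO replicate 3, at 39.6. Its other WT libraries lay between 26 and 28.4, and its other AMPK KO libraries between 18.2 and 31.3. Pseudogenes held 69% of its reads, and with them added the difference was -0.39. At the other end RPL14 had 0.63 (SE 0.18), RPL17 0.51 (SE 0.14) and RPL15 0.49 (SE 0.15, limma adjusted p 0.25).

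**Figure D5:**
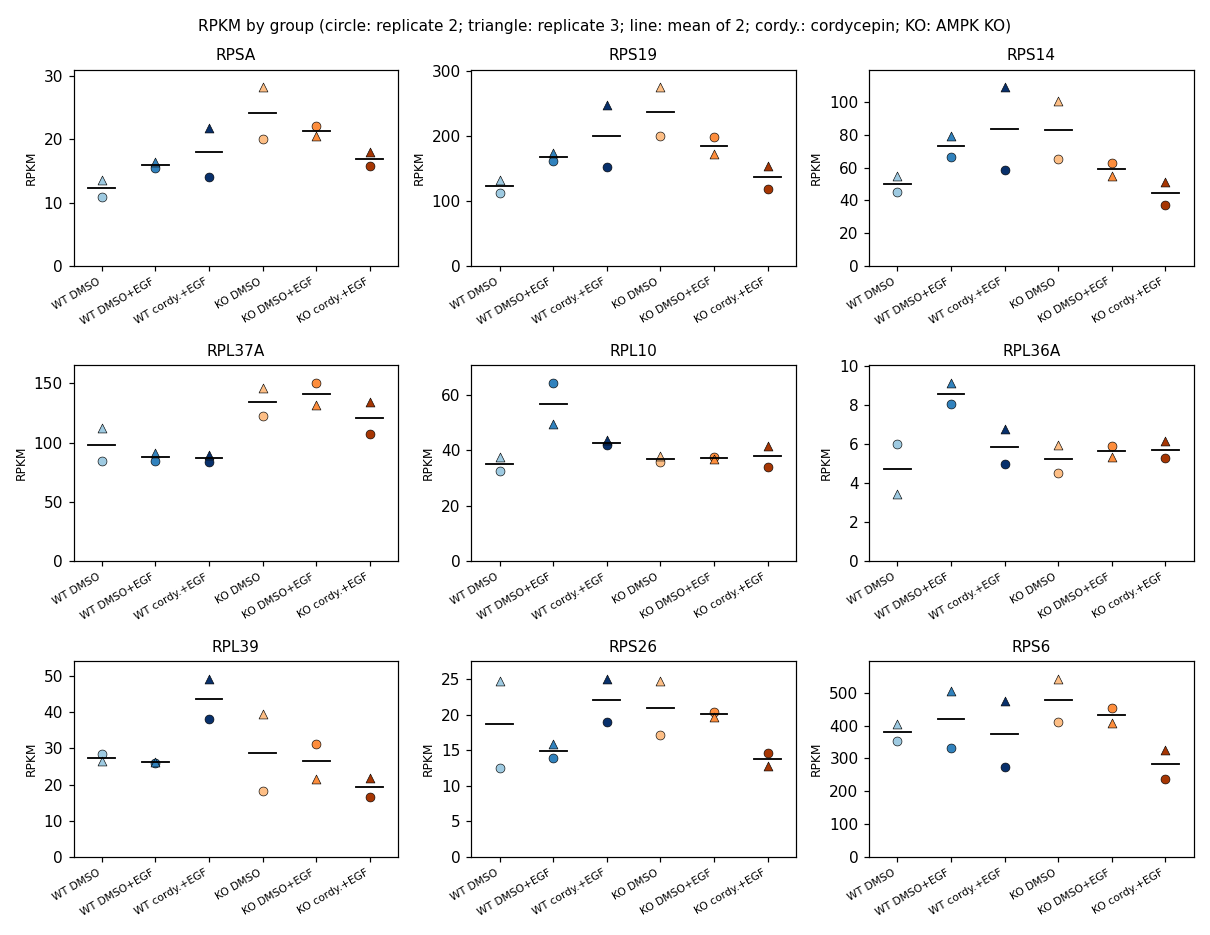
RPKM of 9 ribosomal protein genes by group (circles replicate 2, triangles replicate 3, lines the mean of 2; axes start at 0). RPL37A is higher in AMPK KO than in WT cells within each treatment, RPL10 and RPL36A are highest in WT DMSO+EGF libraries, and RPS26 values with cordycepin lie above those without in WT and below in AMPK KO cells.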

How the data were processed

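RNA was measured in 12 HEK293 libraries. The authors mapped 150-base read pairs to GRCh38.p13, counted them with Rsubread and deposited RPKM values; how reads matching several loci were counted is not given in the sources used here. Replicate 1 of each condition, discarded by the authors, was not analysed here. Rows without a gene name (2) were dropped. Gene IDs were matched to GENCODE release 44 (26029 of 26058). Reads were recovered from the deposited RPKM: 96.25% of genes gave whole reads, within 0.05, in every library at the annotated length, and 99.25% after a length search. Depth was 3994167 to 26347261 reads.

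As in the study, RPKM were scaled by the upper quartile. The test was limma 3.58.1 (R 4.3.3), eBayes with trend, two-sided, on log2(scaled RPKM + 0.5), for 22067 genes whose mean RPKM reached 0.5. All 12 libraries entered 1 fit, which left 6 residual degrees of freedom, and p-values were adjusted by Benjamini-Hochberg separately for the 9 comparisons. The script was tested on simulated data. The 25 alternatives were other pseudocounts, filters, scalings and fits, voom on recovered reads, pseudogene reads added, replicate blocks and each library left out.

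Replicate numbers were not taken as pairs. Over all genes, differences between replicates correlated between groups with r of 0.136 to 0.314 within WT, -0.122 to 0.031 within AMPK KO and -0.081 to 0.322 between the lines. Across the ribosomal protein genes the range was wider. It was -0.040 to 0.634 within WT, -0.447 to 0.030 within AMPK KO and -0.246 to 0.692 between the lines. The highest r was that of WT cordycepin+EGF with AMPK KO DMSO. Some groups thus shared replicate differences in these genes, and replicate blocks were among the alternatives.

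The members, gene lists and tests were chosen with earlier results of these data known. Genes named were a fixed list of 19, the 5 highest and 5 lowest levels, the 3 largest rises and falls in each comparison whatever their p, the 5 largest pseudogene shares, and genes without a TOP start. Those at an unadjusted p under 0.05, the windows printed, and the genes named beside them were chosen after their values were seen. Results for some genes are not reported here, though the counts and medians include them.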

Additional observations from a re-analysis of the deposited data

Results flagged for a closer look

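For 10 genes reported here the libraries moved one way in every WT library and the opposite way in every AMPK KO library under the same contrast; over all genes 10.5% did so for EGF and 19.2% for cordycepin, and none of the 10 differences passed adjustment in limma (adjusted p 0.13 to 0.79). For EGF, the difference (AMPK KO minus WT log2 change) was -0.97 for RPS14 (0.51 in WT and -0.45 in AMPK KO cells), -0.76 for RPS19 (0.42 and -0.33), -0.43 for RPS15, -0.42 for RPLP2 and -0.41 for RPS15A. It was 0.23 for RPL6 and 0.19 for RPL28. For cordycepin it was -1.07 for RPS26 (0.59 in WT and -0.49 in AMPK KO cells), -0.50 for RPS2 (0.22 and -0.29) and 0.70 for RPL17 (-0.22 and 0.47). With same-name pseudogene reads added, RPS26 and RPL17 had 0.087 and -0.11.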

How the results depend on the processing

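With the filters, pseudocounts, scalings, replicate blocks and test without trend, 0 of 77 genes were called in each of 9 comparisons. A replicate block in all libraries gave 0 called with smallest adjusted p-values of 0.054 to 1, and a block within each cell line also gave 0. At an unadjusted p under 0.05 the block in all libraries gave 7 higher for EGF in WT (6.64% of all genes), 7 lower for cordycepin in AMPK KO (11.2%) and 19 lower for AMPK KO against WT in cordycepin+EGF (8.11%), against 4, 2 and 10 without it. Fitting only the groups compared called 3 for AMPK KO against WT in DMSO+EGF (RPL37A, RPSA, RPL36A) and 1 for the difference between lines in cordycepin effect (RPS26). Array weights called 3 in DMSO+EGF (RPL37A, RPL36A, RPL10). Voom called 3 in DMSO (RPL29, RPSA, RPS19), 2 in DMSO+EGF (RPL37A, RPL10), 1 in cordycepin+EGF (RPL39) and 1 for the difference between lines in cordycepin effect (RPS26). Leaving out 1 library gave 0 to 2 calls for EGF in WT cells (2 without WT DMSO replicate 2, RPL36A and RPL21), 0 to 2 for DMSO (2 without WT DMSO replicate 3, RPSA and RPS10), 0 to 2 for DMSO+EGF (RPL37A and RPL10 without either WT DMSO library) and 0 to 1 for the difference between lines in cordycepin effect (RPS26). The cause was not tested. The median log2 change ranged from -0.16 to 0.19 for cordycepin in WT cells, -0.39 to -0.030 for cordycepin in AMPK KO cells, -0.45 to -0.084 for AMPK KO against WT in cordycepin+EGF and -0.40 to -0.040 for the difference between lines in cordycepin effect, each over 1 library left out. It ranged from -0.12 to 0.11 for EGF in AMPK KO and from -0.25 to -0.075 for the difference between lines in EGF effect. Where 1 library was left in a group it was assumed to vary like the others.

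Among the 52 named changes (from the 3 highest and 3 lowest per comparison), the sign turned in 14 values, 22 newly passed the threshold and 1264 kept sign and side. With same-name pseudogene reads added, RPS26 turned to 0.11 for EGF in WT, -0.092 for cordycepin in WT, -0.16 for AMPK KO against WT in DMSO+EGF and 0.087 for the difference between lines in cordycepin effect. RPL17 turned to -0.32 for cordycepin in AMPK KO and -0.11 for the difference between lines, RPS28 to -0.34 for cordycepin in AMPK KO, RPL7 to -0.12 for cordycepin in WT and RPL36A to 0.17 for the difference between lines in EGF effect. Without WT DMSO replicate 3, RPS26 for EGF in WT was 0.20 (range -0.74 to 0.20 over 1 library left out). Without AMPK KO DMSO replicate 3, RPS3 and RPL32 for EGF in AMPK KO were 0.10 and -0.053 (ranges -0.59 to 0.10 and -0.053 to 0.41). Without WT DMSO+EGF replicate 2, RPL27 for cordycepin in WT was 0.056 (from -0.72), and without WT DMSO replicate 2, RPS10 in DMSO was 0.098 (from -0.94). Leaving out read-through loci was not run, since no such locus was among the genes analysed. With 2 libraries a group and 37 reads for RPS27 in the shallowest library, differences of the sizes seen were mostly within the error.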

Other observations

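The copies with an added L, left out by the rule, include RPL22L1, whose protein can take the place of RPL22. In AMPK KO cells RPL22L1 had a log2 change of 0.90 with cordycepin (SE 0.21, limma adjusted p 0.074). It was the highest of the 7 copies tested, whose median was -0.072, with 3 above 0 and 4 below. Its own WT DMSO libraries differed, at 4.50 and 6.66 RPKM. In WT cells it had 0.47 (SE 0.21, limma adjusted p 0.32), and the difference between the lines was 0.44 (SE 0.30, limma adjusted p 0.42). The libraries of both lines lay between 3.77 and 8.36 RPKM, and RPL22 itself between 20.7 and 30.6.

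Of 60 small nucleolar RNA genes inside introns of the 77 genes, 12 were listed in the table. These RNAs guide modification of ribosomal RNA and are released from the host's introns. Their median log2 change with EGF was 0.54 in WT cells (10 of 12 above 0) and 0.17 in AMPK KO cells (8 of 12), beside 0.17 and -0.012 for the ribosomal protein genes and 0.016 and 0.006 for all genes. At an unadjusted p under 0.05, 2 and 0 were higher (6.18% and 1.03% of all genes), and 0 passed adjustment in limma. The WT value rests on the WT DMSO group, whose replicate 3 had 3994167 reads and 1170 genes without a read. Between the lines, the 12 had a median AMPK KO minus WT difference of 0.51 in DMSO (9 above 0) and -0.025 in DMSO+EGF (6 above 0). A rise with EGF and low values in the WT DMSO libraries cannot be told apart. The libraries were not made for such short RNAs.

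The 491 pseudogenes that passed the filter had a median change of 0.008 with cordycepin in AMPK KO cells, against -0.21 for the genes themselves, and 241 lay below 0. That median counts each pseudogene equally, whatever its reads, and their median SE was 0.37, against 0.21 for the genes. By reads, the share on pseudogenes was 34.8% and 35.2% in AMPK KO DMSO+EGF libraries. In AMPK KO cordycepin+EGF libraries it was lower, at 32.9% and 33.5%. The median therefore does not show that pseudogene reads stayed level.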
